A study of Mus musculus with 6 samples.

Results

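Among the nuclei of mouse cortical lesions, 2025 carried a set of transporter genes of the arachnoid and are described here as transporter fibroblasts. They were chosen by their own counts: a nucleus needed at least 4 of the 8 genes Slc6a20a, Slc13a4, Slc13a3, Slc22a8, Slc22a6, Slc22a2, Ranbp3l and Trpm3, and at most 1 of the astrocyte, leukocyte and endothelial genes Aqp4, Gfap, Ptprc, Csf1r and Pecam1. A gene was detected when the nucleus held at least 1 unique molecular identifier (UMI), the tag that marks 1 captured RNA molecule. These 2025 nuclei were 3.33% of the 60729 nuclei that had at least 1000 UMIs and under 5% mitochondrial UMIs, from 67360 barcodes in all. The levels of these 8 genes selected the nuclei and are given as a description, with no test. The other fibroblasts used for comparison were 13732 nuclei selected on at least 4 of Col1a1, Col1a2, Col3a1, Col6a3, Pdgfra, Dcn, Lum and Bnc2, called the fibroblast gate below, with the same limit on the 5 excluded genes and with the transporter fibroblasts left out.

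The meninges are built by layers of fibroblasts. The dura lies outermost, and the arachnoid and the pia, together the leptomeninges, enclose the cerebrospinal fluid. Arachnoid cells form a barrier between dura and cerebrospinal fluid with cadherin and tight junctions, and carry many solute carriers that move organic anions, amino acids, sulfate and dicarboxylates between fluid and blood. Leptomeningeal fibroblasts also make prostaglandin D synthase, retinoic acid and bone morphogenetic proteins, and lay down the basement membrane at the surface of the brain. Transforming growth factor β (TGFβ) is the main known inducer of fibrillar collagen in fibroblasts.

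The nuclei came from cortical lesions made by photothrombosis (PT), in which light and a dye close cortical vessels, and the lesions were taken 7 or 21 days later (days post-injury, dpi). Ctrl mice were wild type with no treatment in the labels. ADWA11 mice were wild type and received ADWA11, an antibody that blocks the integrin αvβ8, which can release active TGFβ. Tgfbr2-cKO mice had the genotype Col1a2(creER); Tgfbr2(flox): a tamoxifen-dependent Cre driven by Col1a2 removes floxed Tgfbr2, the type II TGFβ receptor, from cells that use the Col1a2 promoter, and in the study tamoxifen was given before injury and repeatedly after it. All mice had the lesion, so no uninjured brain was among these libraries, and only lesions freed from the skullcap were dissected, which leaves the meninges that went with each lesion undefined. Each of the 6 groups was 1 library that pooled 1 male and 1 female mouse. With 1 library a group, a difference between conditions has no replicate check, and its intervals cover counting error only. In the text, 6 values in a row stand for Ctrl, ADWA11 and Tgfbr2-cKO, first at 7 and then at 21 dpi.

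Transporter fibroblasts numbered 259, 603 and 66 at 7 dpi and 529, 234 and 334 at 21 dpi. Their median depth ran from 5957 to 10291 UMIs per nucleus, and that of the other fibroblasts from 5887 to 9439. Neurons were unevenly caught: 66.1% of all nuclei in the Tgfbr2-cKO library at 7 dpi and 21.2% of those at 21 dpi carried at least 2 of 5 neuron genes, against 0.608% to 2.18% elsewhere. Among the transporter fibroblasts 19 of 66 and 19 of 334 did so in those 2 libraries, against 0 to 3 nuclei in each of the other 4. The main results of these 2 libraries are therefore given with and without such nuclei, an alternative chosen after seeing the data. At least 4 of the 8 genes, without the limit on excluded genes, were found in 0.308% to 1.55% of nuclei with at least 3 myeloid genes, which should lack these transporters, at median depths of 4700.5 to 7747 UMIs. Trpm3 alone was found in 12.7% (Ctrl at 7 dpi) to 28.6% (Tgfbr2-cKO at 21 dpi) of these nuclei. Each other gene of the rule was found in at most 6.70% of them in any library. A search with simulated doublets marked 2.70% to 8.88% of the transporter fibroblasts per library, and 1 of their 2024 distinct barcodes occurred in more than 1 library.

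The 8 genes of the rule lie apart in the genome except for a pair. Slc22a8, the organic anion transporter Oat3 (chr19:8591254-8611835, plus strand), and Slc22a6, Oat1 (chr19:8618039-8628299, plus strand), neighbour each other in mm10. Slc22a2, the organic cation transporter Oct2, lies at chr17:12584132-12628488, plus strand. RefSeq start-site windows of the GRCm38.p6 build matched all 8 genes, with 9 windows in all because Trpm3 had a pair. Shown here are the bases before the start site for Slc22a6 and Slc22a2, the genes of the rule that were rarest in other fibroblasts, and for Ranbp3l, the one detected in the largest share of transporter fibroblasts over all libraries. Bases that fall in an annotated exon of GENCODE M21 were left out, which removed 57 from the window of Slc22a2 and the whole window of Slc22a8. Capitals mark a match of a motif searched on both strands, and a sequence without capitals held none.
Slc22a6 (+ strand, chr19:8617746-8617995): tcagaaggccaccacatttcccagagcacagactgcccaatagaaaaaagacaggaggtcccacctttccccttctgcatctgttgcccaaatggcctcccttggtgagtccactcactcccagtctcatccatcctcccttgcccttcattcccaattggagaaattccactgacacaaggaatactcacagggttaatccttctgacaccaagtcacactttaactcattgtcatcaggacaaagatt
Slc22a2 (+ strand, chr17:12583939-12584131): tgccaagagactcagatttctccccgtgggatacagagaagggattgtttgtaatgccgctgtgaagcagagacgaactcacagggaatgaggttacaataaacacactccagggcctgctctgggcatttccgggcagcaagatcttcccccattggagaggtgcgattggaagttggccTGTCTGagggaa
Ranbp3l (+ strand, chr15:8967699-8967948): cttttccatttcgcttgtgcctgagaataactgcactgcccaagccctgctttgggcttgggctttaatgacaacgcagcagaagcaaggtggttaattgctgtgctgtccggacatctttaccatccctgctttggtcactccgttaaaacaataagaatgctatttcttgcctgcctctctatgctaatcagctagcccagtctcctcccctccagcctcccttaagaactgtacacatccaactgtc
The motifs were TGTTTAC (forkhead), AGGTCA (nuclear receptor), CAGACA (SMAD-type) and TATAAA (the core promoter box). CAGACA was found in 1 of the 9 windows, that of Slc22a2, read on the reverse strand 69 bases before the start site, and overlapped no other match. AGGTCA was found in 1 window, the second of Trpm3, also on the reverse strand. The forkhead and core promoter letters were found in 0 of 9. Of all 32851 RefSeq windows of the same 300 bases, 21.0% held CAGACA, 16.3% AGGTCA, 3.65% the forkhead letters and 13.6% the core promoter letters. A match is a description of the letters, not a binding site.

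Levels are UMIs scaled to a common total per library and class (CPM). Trpm3, a calcium-permeable channel gene, stood at 7220, 19120 and 9425 CPM at 7 dpi and 23730, 35960 and 44230 CPM at 21 dpi. Its level was lowest in Ctrl at 7 dpi and highest in Tgfbr2-cKO at 21 dpi. As counts were taken over whole genes from nuclear RNA and not per gene length, levels of different genes are not compared. Slc6a20a, a proline and imino acid transporter, stood at 578, 514 and 834 CPM at 7 dpi and 1808, 2086 and 2453 CPM at 21 dpi, higher in each library at 21 dpi than in any at 7 dpi. Ranbp3l, which codes for a nuclear export factor, was at 2311, 2024 and 974 CPM at 7 dpi and 2019, 2128 and 1817 CPM at 21 dpi. It was detected in 95.7% to 99.3% of the nuclei. Slc6a20a, Trpm3 and Slc13a3, like many of the genes named below, among them Nnat, Slc19a1, Slco3a1, Slc7a11, Aldh1a1, Igf1, Ltbp2, Ebf3 and Hmga2, overlap annotated genes on the other strand, so their levels are uncertain where reads of the other strand were counted. Atp6v0a4 and Igkc overlap an annotated gene on the same strand, and their levels are uncertain too.

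Slc13a4, a sulfate transporter, was at 201, 168 and 135 CPM at 7 dpi and 242, 248 and 276 CPM at 21 dpi, and Slc13a3, a carrier of dicarboxylates such as succinate, at 125, 85.2 and 132 CPM at 7 dpi and 222, 136 and 321 CPM at 21 dpi. Of the organic ion transporters, Slc22a8 was detected in 43.9% to 72.3% of the nuclei, Slc22a6 in 24.7% to 45.5% and Slc22a2 in 18.5% to 32.6%. Slc22a6 and Slc22a8 were found together in 431 of 2025 transporter fibroblasts and in 16 of 13732 other fibroblasts. In the other fibroblasts Slc22a8 ranged over 4.37 to 13.2 CPM and Slc22a6 over 0.351 to 4.096 CPM, levels that the rule itself kept low.

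Just outside the rule, 1003 nuclei had 3 of the 8 genes. Inside it, 778 had 4, 530 had 5, 384 had 6, 254 had 7 and 79 had all 8. Ptgds, prostaglandin D synthase, was at 498 CPM over the 897 of these 1003 that passed the fibroblast gate, and at 980 CPM with 4, 1788 CPM with 5 and 4360 CPM with 6 to 8, steps that were not limited to the gate. Median depths in these steps were 7843, 7612.5, 7618 and 7994 UMIs. Within each library Ptgds was higher with 6 to 8 genes than with 4, by a log2 ratio of 1.65 to 3.05, in 6 of 6 libraries. Slc6a13, a taurine and GABA transporter, and Lama1, a laminin chain, were also higher with 6 to 8 genes in 6 of 6 libraries, by log2 ratios of 0.27 to 1.66 and 0.13 to 1.22. Slc4a10, a sodium bicarbonate transporter, and Slit3, a guidance ligand, were lower in 6 of 6, by -2.76 to -1.12 and -3.70 to -0.67. Cdh1, which codes for E-cadherin of the arachnoid barrier, moved in both directions, higher in 3 libraries, in 1 of them from 0 CPM with 4 genes, and lower in 3. These genes were not part of the rule, but they were read in the same nuclei that it chose, so no test is given.

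Tgfbr2, the gene targeted in Tgfbr2-cKO mice, was detected in every library. In transporter fibroblasts it stood at 238, 219 and 104 CPM at 7 dpi and 166, 151 and 159 CPM at 21 dpi, and in the other fibroblasts at 319, 236 and 204 CPM at 7 dpi and 217, 199 and 181 CPM at 21 dpi. The log2 ratio of Tgfbr2-cKO to Ctrl was -1.20 at 7 dpi (95% interval -1.58 to -0.84) and -0.06 at 21 dpi (-0.24 to 0.12). Without members carrying neuron genes the ratio at 7 dpi was -0.83. Counts from the 3′ end do not check the loss of an internal floxed exon. Col1a2, whose promoter drives the Cre, was at 929, 793 and 352 CPM at 7 dpi and 1130, 868 and 283 CPM at 21 dpi in transporter fibroblasts against 3147, 2329 and 914 CPM at 7 dpi and 3266, 2765 and 558 CPM at 21 dpi in the other fibroblasts. It was lower in the transporter fibroblasts in 6 of 6 libraries, although Col1a2 was one of the genes that chose the other fibroblasts.

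The nuclei were checked against markers of the cells they could be taken for. Of 8 markers of choroid plexus epithelium, which shares several of these transporters, 3 to 5 were detected per library, with a summed level of 43.6 to 130 CPM against 15.0 to 26.8 CPM in the other fibroblasts. Ttr, the defining product of that epithelium, was at 0 in 4 libraries and at most at 0.55 CPM, Otx2 and Sostdc1 were at 0 in all 6, and Clic6, Kl and Kcnj13 carried the sum. Ependymal markers summed to 0 to 6.01 CPM and T cell markers to 1.01 to 6.70 CPM. Neuron markers summed to 2.58 to 138 CPM in the 4 libraries of Ctrl and ADWA11, and to 1907 and 370 CPM in those of Tgfbr2-cKO at 7 and 21 dpi.

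The label of arachnoid cells held in part. Bnc2, a fibroblast transcription factor of the gate, was detected in 95.1% of the transporter fibroblasts and 91.9% of the others, and 88.2% of the transporter fibroblasts passed the fibroblast gate. That gate is made mostly of matrix genes. The share was 59.9% in Tgfbr2-cKO at 21 dpi and 74.2% at 7 dpi, against 91.45% to 97.51% in the 4 other libraries. With a gate of at least 2 fibroblast genes outside the matrix, 92.4% to 99.2% passed. That gate asked for fewer genes than the 4 of the first, so the shares of the 2 gates are not like for like. At least 2 of the barrier genes Cdh1, Ocln, Dpp4, Gjb2 and Gjb6 were found in 48.7% of the transporter fibroblasts against 10.3% of the others, but in 20.1% in Ctrl at 7 dpi and 69.2% in ADWA11 at 21 dpi. All of these genes were among the 6 barrier genes called higher in the test below, so this gap is no separate support for the label. Of the remaining barrier genes Dsp and Krt18 were too sparse to test, and Abcb1a and Abcg2, efflux pumps of brain barriers, stood at 143 against 148 CPM and 134 against 141 CPM, with log2 fold changes of -0.06 and 0.00 that did not pass the test. F11r, Jup and Gja1 averaged 9.05 against 7.74 CPM, 20.5 against 18.8 CPM and 236 against 196 CPM and were not called. Cldn11 and Klf5, at 187 against 98.7 CPM and 105.5 against 60.6 CPM, were not called either. Lama1 and Lamc3, laminin chains used to mark pial and leptomeningeal fibroblasts, were found together in 23.4% of the transporter fibroblasts (8.55% to 53.0% by library) and 3.08% of the others. Slc47a1 and Pde11a together, marks of another group of fibroblasts in these lesions, were found in 3.95% against 23.6%.

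The share of transporter fibroblasts was 3.28%, 5.53% and 0.608% at 7 dpi and 4.38%, 1.85% and 5.28% at 21 dpi of all nuclei, and 11.2%, 19.7% and 13.4% at 7 dpi and 8.68%, 5.79% and 31.3% at 21 dpi of the fibroblast-gate nuclei, counting in the second share only those that passed the gate. As a share of all nuclei, ADWA11 lay above Ctrl at 7 dpi by a log2 ratio of 0.75 (95% interval 0.54 to 0.97) and below it at 21 dpi by -1.25 (-1.47 to -1.02). The direction was the same in the gate, with 0.82 (0.61 to 1.04) and -0.58 (-0.82 to -0.35). Nuclei of the female and of the male mouse, told apart by Xist and Y-linked genes, both lay on that side of their Ctrl counterparts at each time. Tgfbr2-cKO lay below Ctrl at 7 dpi among all nuclei, at -2.43 (-2.84 to -2.04), or -1.38 when nuclei with neuron genes were taken out of the count, and at 0.27 (-0.20 to 0.71) within the gate, where male nuclei alone gave -0.3641. At 21 dpi the same comparison gave 0.27 (0.07 to 0.47) among all nuclei, which turned to -0.01041 with 3 genes in the rule, and 1.85 (1.61 to 2.09) within the gate. In that library the gate held 639 nuclei against 5586 in Ctrl at 21 dpi, and Col1a2 and other genes of the gate were themselves lower in the Tgfbr2-cKO libraries. The difference in shares between Ctrl and ADWA11 turned around between 7 and 21 dpi, a change that was not tested because no group had a second library. All these shares count nuclei by the number of rule genes detected, and Trpm3 was detected unevenly. It was found in 61.8%, 93.4% and 80.3% of transporter fibroblasts at 7 dpi and 92.6%, 96.6% and 97.3% at 21 dpi. In the other fibroblasts the values were 26.8%, 46.9% and 30.4% at 7 dpi and 46.2%, 46.8% and 76.3% at 21 dpi. Shares under a rule without Trpm3 were not tested.

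**Figure D1:**
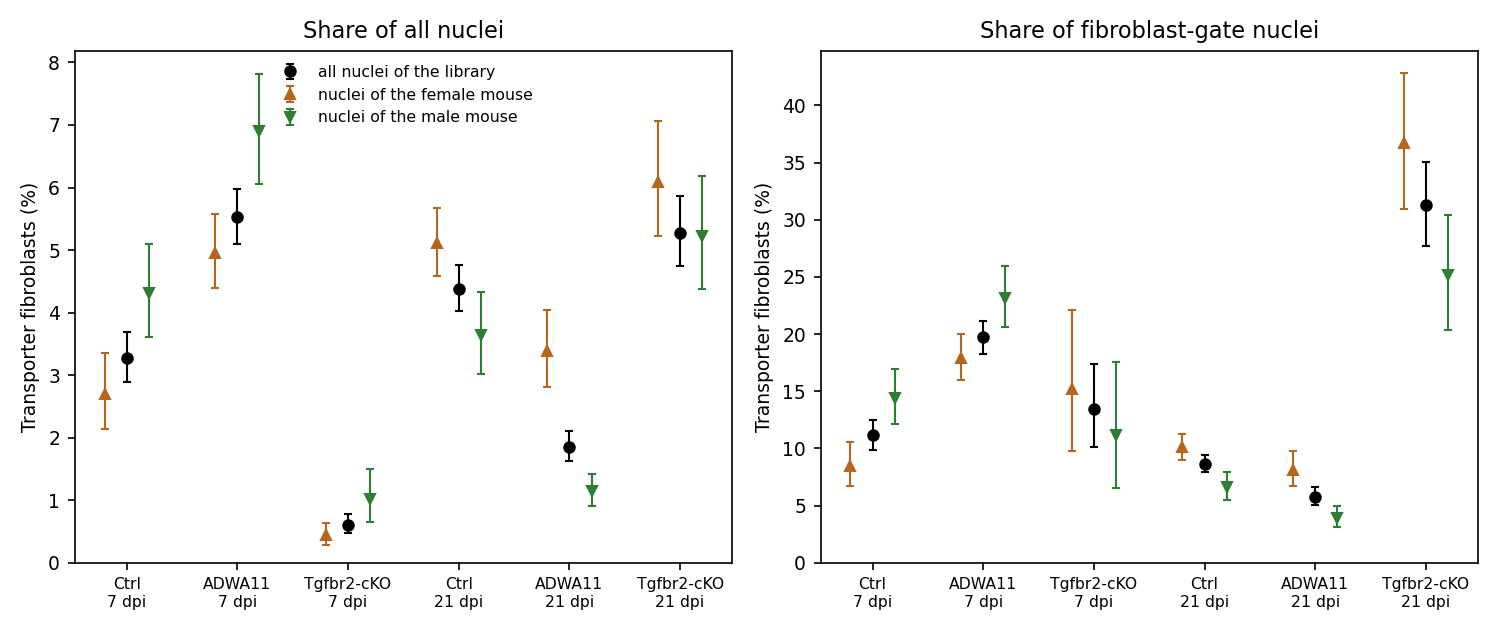
Transporter fibroblasts as a percentage of all nuclei (left) and of fibroblast-gate nuclei (right) in each of the 6 libraries, with 95% Clopper-Pearson intervals that cover counting error only; black circles are whole libraries and triangles the nuclei of the female (up) and male (down) mouse. Among all nuclei the share was 0.608% in Tgfbr2-cKO at 7 dpi and 5.53% in ADWA11 at 7 dpi, and within the gate the highest share was 31.3% in Tgfbr2-cKO at 21 dpi.

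Transporter and other fibroblasts were next compared as UMI sums within each of the 6 libraries, with the library as a block (edgeR quasi-likelihood test). Of 13773 genes tested, 450 (3.27%) were higher and 695 (5.05%) lower in transporter fibroblasts, at an adjusted p under 0.05 and a change of at least 1 on the log2 scale. The genes of the rule, the 5 excluded genes and those of the fibroblast gate were kept in the fit and out of these counts. The p-values measure only how alike the difference was in the 6 libraries. They do not test whether the nuclei form a separate type, because the nuclei were selected on 8 genes that vary together with others. The highest among abundant genes were Atp13a5, a P-type ATPase gene that the study used to mark pericytes, with a log2 fold change of 4.61 ± 0.33 (SE), Ptgds (4.6 ± 0.13), Ppp1r1a, a phosphatase inhibitor (4.49 ± 0.44), Nnat, neuronatin (3.98 ± 0.38), and Zkscan2, a zinc finger gene (3.91 ± 0.41). Slc6a13, Slc6a20b, Dcdc2a, Aifm3 and Dnajc6 followed, at 3.86, 3.84, 3.76, 3.68 and 3.53. Among the same abundant genes, with at least 50 CPM in the higher class, the largest falls were those of Col24a1, a fibrillar collagen (-4.01 ± 0.36), Ism1, isthmin (-3.55 ± 0.33), Mmp3, stromelysin (-3.43 ± 0.32), Col14a1, a fibril-associated collagen (-3.16 ± 0.25), and Adamtsl3, a matrix protein gene (-3.14 ± 0.26). Ebf3, Slit3, Ltbp2, Erg and Epha3 followed, at -3.13, -2.97, -2.97, -2.87 and -2.83. Without the library block Ebf3 and Erg did not pass the test.

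Solute carriers outside the rule moved in both directions. Of 249 tested, 23 (9.24%) were higher and 32 (12.9%) lower, and their median log2 fold change was -0.09 against -0.01 over all genes. The ones that rose included carriers of amino acids and transmitters. Slc6a13 (chr6:121300227-121337733, plus strand) stood at 448, 369 and 309.6 CPM at 7 dpi and 258, 247 and 487 CPM at 21 dpi, against 46.7, 39.8 and 68.1 CPM at 7 dpi and 10.01, 4.96 and 31.4 CPM at 21 dpi in the other fibroblasts, with a log2 fold change of 3.86 ± 0.42 (SE, edgeR adjusted p = 5.4e-04). The 2 sets of levels did not overlap. Its neighbour in function Slc6a12, a betaine and GABA transporter, was at 49.6 against 4.04 CPM on average over libraries (4.18 ± 0.45). Slc6a9, a glycine transporter, rose as well (1.81 ± 0.13).

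Slc1a3, a glutamate transporter that astrocytes also carry, was at 1928, 1305 and 995 CPM at 7 dpi and 1075, 998 and 1151 CPM at 21 dpi against 362, 316 and 408 CPM at 7 dpi and 182, 234 and 359.6 CPM at 21 dpi, and Slc7a11, the cystine and glutamate exchanger, at 1957, 1733 and 1676 CPM at 7 dpi and 1170, 820.5 and 2319 CPM at 21 dpi against 133, 400.5 and 464 CPM at 7 dpi and 72.8, 101 and 1410 CPM at 21 dpi. Both were higher in transporter fibroblasts in 6 of 6 libraries, with log2 fold changes of 2.07 ± 0.16 and 2.66 ± 0.44. For Slc7a11 the gap was narrowest in Tgfbr2-cKO at 21 dpi, where the other fibroblasts also carried it. Slc38a3, a glutamine transporter, was sparser, at 25.99 against 2.73 CPM (3.28 ± 0.16). Beside Slc1a3, the astrocyte markers tested were Aldh1l1 and Slc1a2, with log2 fold changes of 0.40 and 0.10 that did not pass, and Aqp4 and Gfap had been used to leave nuclei out. The 3 astrocyte markers outside the rule, none at 0, summed to 1011 to 1943 CPM in transporter fibroblasts against 222 to 510 CPM in the others, sums that are mostly Slc1a3 itself. Aldh1l1 alone stood at 2.31 to 16.6 CPM against 1.55 to 16.7 CPM, and Slc1a2 at 9.27 to 158 CPM against 7.24 to 97.2 CPM. The part of astrocyte RNA in these values was not tested.

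Slc6a20b was at 92.7, 61.8 and 179 CPM at 7 dpi and 76.5, 131 and 145 CPM at 21 dpi and rose by 3.84 ± 0.19, but it is a near copy of the rule's Slc6a20a. The transcripts of Slc6a20b share 9.40% of their 30-base words with those of Slc6a20a, so reads could be split between them and its level is uncertain. The other carriers that rose fell into a few families. For organic ions and hormones they were Slc22a4 (2.09), Slc22a23 (1.83), Slco1c1 (1.42) and Slco1a4 (1.49). For vitamins they were Slc19a1, the folate carrier (1.83), and Slc19a2, the thiamine carrier (1.27). Members of the monocarboxylate carrier family that rose were Slc16a6 (1.86), Slc16a11 (2.14) and Slc16a12 (2.17). The metal carriers Slc30a10 (2.58) and Slc41a1 (1.55), the fatty acid carrier Slc27a1 (1.07), the sugar carrier Slc2a12 (2.05) and Slc7a14 (2.09) completed the list with Slc9a3r1 (1.37), which codes for a scaffold protein and not for a carrier.

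Among the carriers that were lower, Slc4a10 was at 166, 311 and 228 CPM at 7 dpi and 1280, 1058 and 389 CPM at 21 dpi against 1137, 1178 and 697 CPM at 7 dpi and 3782, 3499 and 1879 CPM at 21 dpi, a log2 fold change of -1.93 ± 0.16. Slc47a1, an exporter of organic cations, and its relative Slc47a2 were lower too, with log2 fold changes of -2.36 and -2.66. Slc39a14, a zinc and iron importer (-2.13), Slc26a7, an anion exchanger (-2.24), Slc6a6, a taurine transporter (-1.76), Slc38a1, a glutamine transporter (-1.17), and Slco3a1 (-1.19) were also lower. Of the other 24, Slc13a5, a citrate carrier of the same family as 2 genes of the rule, was lowest, at 0.597 against 7.17 CPM (-3.22 ± 0.35). The remaining 23 were Slc1a1, Slc2a3, Slc2a9, Slc5a6, Slc6a7, Slc8a3, Slc9b1, Slc9b2, Slc11a1, Slc15a3, Slc16a1, Slc16a7, Slc16a14, Slc22a22, Slc25a21, Slc27a6, Slc29a1, Slc35g1, Slc36a2, Slc43a3, Slco1a5, Slco1a6 and Slco5a1, with log2 fold changes between -2.41 (Slc36a2) and -1.05 (Slc29a1).

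**Figure D2:**
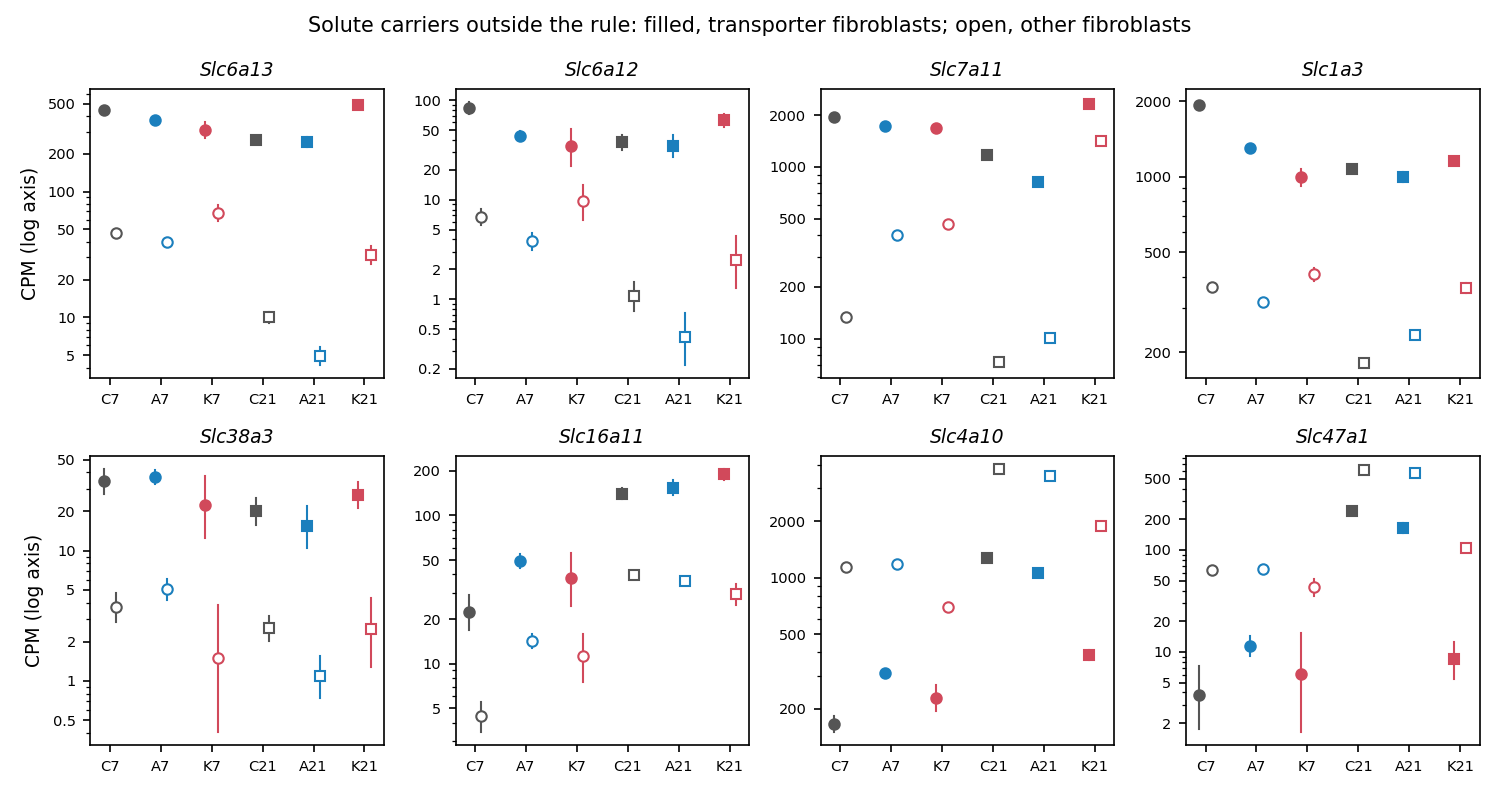
Levels of 8 solute carriers outside the rule, in CPM on a log axis with exact Poisson 95% intervals, in transporter (filled) and other fibroblasts (open); C, A and K stand for Ctrl, ADWA11 and Tgfbr2-cKO, the number for the dpi, circles for 7 dpi and squares for 21 dpi. Slc6a13, Slc6a12, Slc7a11, Slc1a3, Slc38a3 and Slc16a11 were higher, and Slc4a10 and Slc47a1 lower, in transporter fibroblasts in each of the 6 libraries.

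Of 14 genes for proteins of the cerebrospinal fluid, hormone carriers and growth factors, 4 were higher (28.6%), Ptgds, Apod, Igfbp2 and Vtn, and 1 was lower, Igf1. Ptgds (chr2:25466709-25470046, minus strand) was at 374, 590.3 and 595 CPM at 7 dpi and 4940, 3713 and 4842 CPM at 21 dpi against 17.9, 29.6 and 17.5 CPM at 7 dpi and 252, 127 and 220.4 CPM at 21 dpi, with a log2 fold change of 4.6 ± 0.13 (SE, edgeR adjusted p = 1.9e-06). Apolipoprotein D, coded by Apod, was at 803, 961 and 693 CPM at 7 dpi and 2042, 2113 and 2747 CPM at 21 dpi against 176, 363 and 455 CPM at 7 dpi and 458, 894 and 728 CPM at 21 dpi (1.65 ± 0.21). Igfbp2, an insulin-like growth factor binding protein, was at 72.9 against 20.4 CPM (1.93 ± 0.17), and Vtn, vitronectin, at 31.7 against 8.39 CPM (2.08 ± 0.31). Igf1, insulin-like growth factor 1, was at 134 against 308 CPM (-1.11 ± 0.2).

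Among 13 genes of bone morphogenetic protein (BMP) signalling the ligands Bmp4, Bmp6 and Bmp7 rose and the targets Id1 and Id2 fell. Bmp6 was at 2308, 1524 and 1192 CPM at 7 dpi and 1272, 726 and 1114 CPM at 21 dpi against 339, 230 and 263 CPM at 7 dpi and 165, 71.2 and 123 CPM at 21 dpi, a log2 fold change of 2.91 ± 0.15. Bmp7 was at 175, 158 and 107 CPM at 7 dpi and 159.6, 178 and 155 CPM at 21 dpi against 28.5, 25.2 and 26.1 CPM at 7 dpi and 15.1, 12.02 and 14.6 CPM at 21 dpi (3.08 ± 0.23). Bmp4 (1.26 ± 0.15) rose too, while Bmp5 (0.6 ± 0.26) did not pass the test. The receptor Bmpr1b (-2.25 ± 0.35), the antagonist Chrdl1 (-3.09 ± 0.31) and the BMP target genes Id1 (-1.68 ± 0.27) and Id2 (-1.51 ± 0.17) were lower. Over the list 4 genes were higher (30.8%) and 4 lower (30.8%).

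Of 13 barrier and junction genes tested 6 were higher (46.2%) and 0 lower by the edgeR test. They were Dpp4, a membrane peptidase (2.24 ± 0.34), Ocln, occludin (2.53 ± 0.41), Gjb6 and Gjb2, connexins (2.06 ± 0.18 and 1.86 ± 0.24), Cdh1 (1.81 ± 0.32) and Tjp1, the scaffold of tight junctions (1.39 ± 0.22). Tjp1 was higher in 6 of 6 libraries, whereas Cdh1 and Ocln were higher in 5, the exception being Ctrl at 7 dpi. Cldn11, claudin 11 (0.98 ± 0.29), missed the fold limit. Of 13 leptomeningeal genes 7 were higher (53.8%) and 0 lower, of which Aldh1a2, a retinoic acid synthase, was at 437, 358 and 379 CPM at 7 dpi and 240.2, 327 and 390.1 CPM at 21 dpi against 55.8, 102 and 139 CPM at 7 dpi and 18.8, 19.6 and 87.8 CPM at 21 dpi (2.74 ± 0.36). The other 6 were Lama1, Lamc3, Ptgds, Nnat, Slc6a13 and Igfbp2. Both lists were chosen with earlier results of these data known, so their counts are no independent support for the label.

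Dural genes moved the other way. Of 10 tested 4 were lower (40.0%), among them Alpl, alkaline phosphatase (-2.8 ± 0.28), Slc47a1 (-2.36 ± 0.33) and Dkk2, a Wnt inhibitor (-3.11 ± 0.44), and 0 were higher. Foxp1 and Foxp2 stayed within the fold limit, at -0.38 and -0.92. Of 9 retinoic acid genes Aldh1a2 and the retinol importer Stra6 (2.16 ± 0.36) were higher, and Aldh1a1 (0.16) did not pass.

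Fibrillar collagens were lower. Of 6 outside the gate 4 fell (66.7%), Col24a1, Col27a1 (-1.86 ± 0.23), Col5a3 (-1.84 ± 0.38) and Col11a1 (-1.18 ± 0.25), and Col5a1 and Col5a2 had values of -0.75 and -0.91. The gate genes Col1a1, Col1a2 and Col3a1, on which the other fibroblasts had been selected, had values of -1.44, -1.43 and -1.43 and are not counted. Among only those members that passed the gate, 435 genes of all tested were higher and 712 lower. Against other fibroblasts chosen by the gate of at least 2 genes outside the matrix the counts were 474 and 1021. Of 15 basement membrane genes 4 were higher (26.7%), the laminins Lama1 (2.6 ± 0.37) and Lamc3 (2.49 ± 0.22) and the type IV collagen chains Col4a5 (1.47 ± 0.12) and Col4a6 (1.8 ± 0.15). The paired chains Col4a1 and Col4a2 were at -0.71 and -0.64, and Lama2 at 0.00. Lama1 was at 586, 303 and 489.9 CPM at 7 dpi and 461, 301 and 860.1 CPM at 21 dpi against 134, 95.7 and 229 CPM at 7 dpi and 46.2, 21.3 and 92.4 CPM at 21 dpi.

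TGFβ target and feedback genes were lower in 4 of 12 (33.3%), among them Tgfbi (-1.84 ± 0.19), Nox4 (-1.54 ± 0.19) and Ltbp2 (-2.97 ± 0.29), with 0 higher, and the median over the list was -0.71. Adam12 (0.73) and Ccn2 (0.94) had positive values within the fold limit. Of 5 myofibroblast genes Tagln was lower (-1.41 ± 0.31), and Cthrc1, Postn, Fn1 and Tnc did not pass both limits. Among 9 chemokine and cytokine genes Il34, a ligand of the receptor Csf1r, rose (1.16 ± 0.14), and Il33 (-2.47 ± 0.27), Cd80 (-1.56 ± 0.27) and Tnfsf11 (-3.65 ± 0.41) were lower. Of 8 proliferation genes Mki67 was lower (-1.17 ± 0.3).

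Transcription factors separated the classes in both directions. Of 23 tested outside the gate 5 were higher and 5 lower. Zic2 (1.43 ± 0.12), Zic5 (1.02 ± 0.11), Osr1 (1.33 ± 0.2), Tfap2a (1.2 ± 0.25) and Tfap2b (1.08 ± 0.17) were higher and Ebf1 (-2.22 ± 0.2), Ebf3, Prrx1 (-1.1 ± 0.12) and Twist2 (-1.13 ± 0.17) lower. Foxc1, a forkhead factor needed for meninges, was at 116 against 87.1 CPM (0.47) and Tbx18 at 303 against 294 CPM (0.08), both within the limit. Among markers of other cells, mural genes Rgs5, Abcc9 and Notch3 and the osteoblast genes Bglap, Sp7 and Phex were lower, with 3 called in each list. Atp13a5, which the study used to mark pericytes, was not in the mural list and was higher, as given above. Of the endothelial genes Cdh5 was higher (1.36 ± 0.2) and Cldn5 and Tek were lower. Cspg4 of oligodendrocyte precursors was lower (-1.66 ± 0.28), 0 of 3 myeloid, 0 of 4 neuron and 0 of 5 oligodendrocyte genes passed either way, and the 3 choroid plexus genes tested, Clic6 (1.83), Kl (3.23) and Kcnj13 (2.2), were higher.

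**Figure D3:**
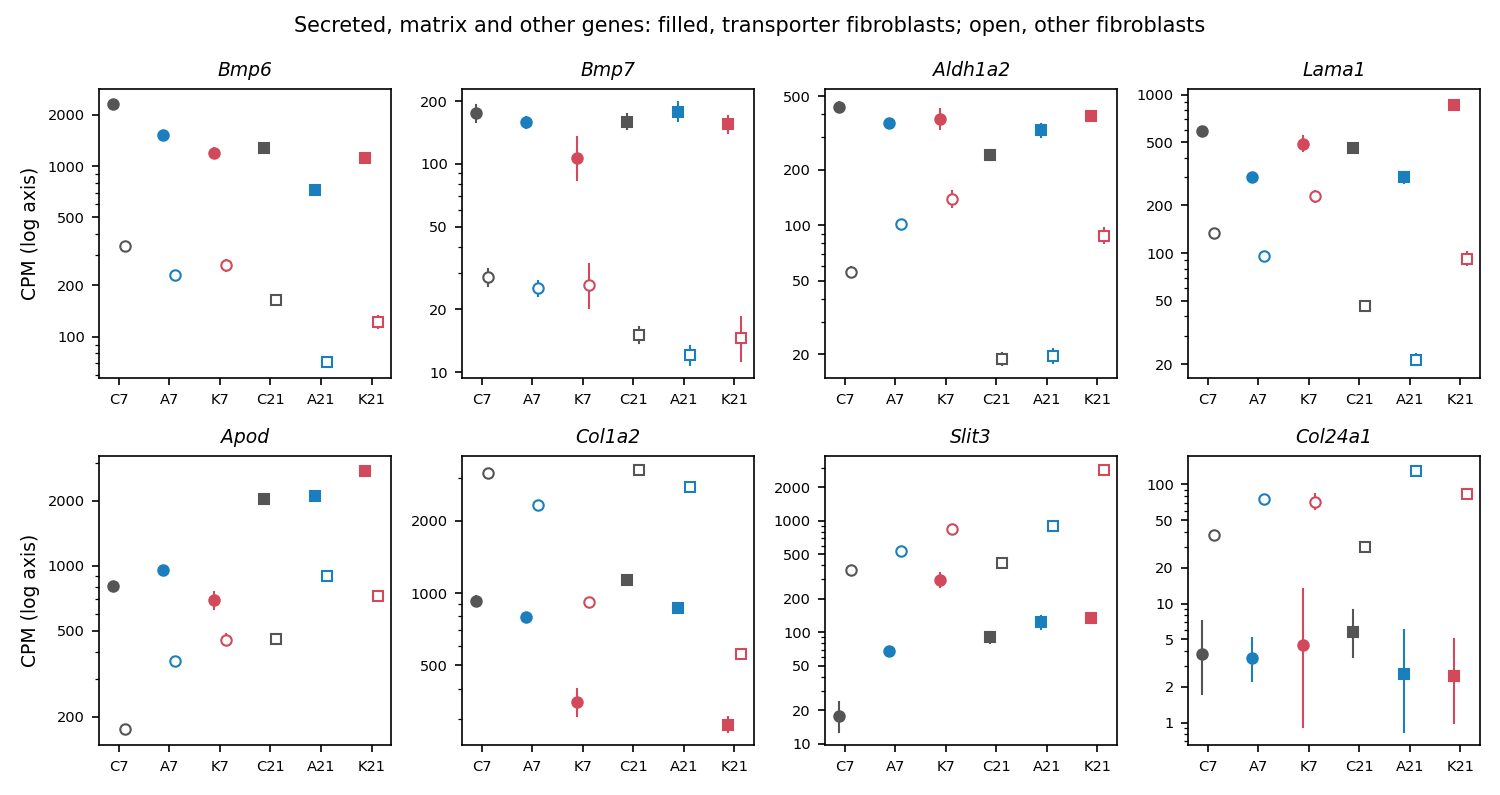
Levels of 8 genes for ligands, secreted proteins, an enzyme and matrix, in CPM on a log axis with exact Poisson 95% intervals, in transporter (filled) and other fibroblasts (open); C, A and K stand for Ctrl, ADWA11 and Tgfbr2-cKO, circles for 7 dpi and squares for 21 dpi. Bmp6, Bmp7, Aldh1a2, Lama1 and Apod were higher and Col1a2, Slit3 and Col24a1 lower in transporter fibroblasts in each of the 6 libraries.

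Other kinds of fibroblasts set beside them were the 423 nuclei with Lama1 and Lamc3 and the 3241 with Slc47a1 and Pde11a, all outside the rule. Few such nuclei came from some libraries. For Lama1 with Lamc3, ADWA11 at 21 dpi gave 24 nuclei and Tgfbr2-cKO at 21 dpi gave 11. For Slc47a1 with Pde11a, Tgfbr2-cKO at 7 dpi gave 10. Low CPM values from these small sets can rest on very few UMIs, and no intervals are given. Counts over 6 libraries below rest partly on them. In the former Slc6a13 stood at 476, 262 and 343 CPM at 7 dpi and 250.3, 205 and 326 CPM at 21 dpi, above the transporter fibroblasts in 2 of 6 libraries. Aldh1a2 was at 398, 383 and 327 CPM at 7 dpi and 333, 258 and 148 CPM at 21 dpi there, also above in 2 of 6. Ptgds was at 18.8, 35.1 and 32.9 CPM at 7 dpi and 378, 64.4 and 415 CPM at 21 dpi in the Lama1 and Lamc3 nuclei and 56.2, 20.7 and 24.4 CPM at 7 dpi and 174, 99.2 and 295 CPM at 21 dpi in those with Slc47a1 and Pde11a, below the transporter fibroblasts in each library. Bmp6 was at 1159, 738 and 823 CPM at 7 dpi and 993, 310.3 and 850.4 CPM at 21 dpi in the Lama1 and Lamc3 nuclei, and Cdh1 at 0, 0.516 and 0 CPM at 7 dpi and 4.14, 5.86 and 0 CPM at 21 dpi. Some of the genes that were higher in transporter than in other fibroblasts were at least as high in this kind. Apod was at 1058, 1762 and 1509 CPM at 7 dpi and 3018, 4936 and 3965 CPM at 21 dpi in the Lama1 and Lamc3 nuclei, above the transporter fibroblasts in 6 of 6 libraries, and Il34 was above them in 6 of 6 as well, at 96.1, 192 and 159 CPM at 7 dpi and 223, 591 and 198 CPM at 21 dpi. Averaged over the libraries, Igfbp2, Vtn, Slc1a3, Dcdc2a and Kl were also as high or higher there, at 96.6 against 72.9 CPM for Igfbp2, 45.1 against 31.8 CPM for Vtn, 1247 against 1242 CPM for Slc1a3, 105 against 77.5 CPM for Dcdc2a and 44.5 against 31.0 CPM for Kl. The same held for the type IV collagen chains, at 925 against 361 CPM for Col4a5 and 711 against 243 CPM for Col4a6, for the transcription factors Tfap2a, at 58.3 against 16.4 CPM, and Tfap2b, at 155 against 102 CPM, and for the carriers Slc16a12, at 184 against 102 CPM, and Slc30a10, at 53.7 against 32.6 CPM. By the median over libraries, however, Igfbp2 and Vtn were lower in the Lama1 and Lamc3 nuclei, at 71.5 against 76.8 CPM and 28.9 against 30.4 CPM. Lama1 and Lamc3 chose these nuclei. In the Slc47a1 and Pde11a nuclei Slc4a10 was high, at 3827, 4600 and 1923 CPM at 7 dpi and 5961, 5361 and 5566 CPM at 21 dpi, and Slc6a13 and Aldh1a2 were low, at 0.864, 1.68 and 16.3 CPM at 7 dpi and 2.31, 0.386 and 3.41 CPM at 21 dpi and 1.73, 1.12 and 8.15 CPM at 7 dpi and 5.13, 5.398 and 1.703 CPM at 21 dpi. Both kinds were picked on genes that vary with the ones shown, and no test was made between the kinds.

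Time after injury was compared with a fit over the 6 sums of transporter fibroblasts, 3 libraries at each time with the condition as a block (edgeR quasi-likelihood test), which was added after the data had been seen. Of 12493 genes tested 239 (1.91%) were higher and 301 (2.41%) lower at 21 than at 7 dpi. These counts were not stable. They ran from 34 to 716 higher and 88 to 562 lower when 1 library was left out, and were 4 and 1 without the condition block. Leaving out the Tgfbr2-cKO library at 7 dpi gave 716 and 562 and leaving out that at 21 dpi gave 670 and 524, whereas the number fell to 34 and 128 without Ctrl at 7 dpi, 50 and 88 without ADWA11 at 7 dpi, 46 and 98 without ADWA11 at 21 dpi and 68 and 236 without Ctrl at 21 dpi. Times were different animals and different libraries, so time and library cannot be told apart beyond the spread between the 3 conditions.

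Ptgds, whose levels are given above, rose from 374 to 595 CPM at 7 dpi to 3713 to 4940 CPM at 21 dpi with no overlap between the times, a log2 fold change of 3.1 ± 0.28 (SE, edgeR adjusted p = 0.0082). The other fibroblasts carried less Ptgds at both times and also had more of it at 21 dpi. By library they ranged from 17.5 to 252 CPM. Over all nuclei outside the rule, these fibroblasts among them, Ptgds ranged nearly the same, from 13.3 to 252 CPM. The part of RNA from other cells in the Ptgds of the other fibroblasts was not tested. Apod (1.45 ± 0.22), Igfbp3 (1.98 ± 0.33), Bmp4 (1.16 ± 0.18), Mgp, matrix Gla protein (2.12 ± 0.26), Ccn2 (1.72 ± 0.27) and Cd80 (2.38 ± 0.3) rose too. Igfbp3 was at 8.85, 5.78 and 3.005 CPM at 7 dpi and 51.7, 17.5 and 8.098 CPM at 21 dpi. The times overlapped, since Tgfbr2-cKO at 21 dpi lay below Ctrl at 7 dpi.

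Of 13 barrier and junction genes 4 rose and 0 fell (30.8%). Cdh1 was at 5.899, 20.2 and 10.5 CPM at 7 dpi and 74.02, 55.1 and 35.2 CPM at 21 dpi (2.19 ± 0.43). Ocln was at 2.11, 10.1 and 4.51 CPM at 7 dpi and 36.3, 34.5 and 23.2 CPM at 21 dpi (2.5 ± 0.45). Dpp4 was at 13.9, 74.5 and 31.6 CPM at 7 dpi and 202, 277 and 231 CPM at 21 dpi (2.75 ± 0.37). All 3 were lower in each library at 7 dpi than in any at 21 dpi. Gjb2, the fourth, had a smaller change (1.05 ± 0.22), and in Tgfbr2-cKO at 21 dpi it lay below ADWA11 at 7 dpi. Gjb6 did not pass (0.4 ± 0.23).

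Basement membrane genes moved the other way, with 6 of 15 lower (40.0%) and 0 higher. Lamb1, a laminin chain, was at 293, 217 and 134 CPM at 7 dpi and 41.3, 27.3 and 33.1 CPM at 21 dpi (-2.66 ± 0.22). Nid2, nidogen 2, was at 253, 202 and 82.7 CPM at 7 dpi and 36.9, 37.1 and 34.5 CPM at 21 dpi (-2.25 ± 0.3), and Lamc3 at 235, 114 and 199.9 CPM at 7 dpi and 42.9, 22.1 and 52.5 CPM at 21 dpi (-2.28 ± 0.17). Col4a1 (-2.0 ± 0.19), Col4a2 (-1.8 ± 0.2) and Col4a6 (-1.45 ± 0.27) fell with them. Lama1 did not pass (0.11 ± 0.24). In the other fibroblasts Lama1 and Lamc3 were found together in 5.45%, 7.02% and 14.9% at 7 dpi and 1.25%, 0.690% and 2.51% at 21 dpi. By this share a fall was not limited to transporter fibroblasts. Outside the basement membrane list Vcan, a proteoglycan (-3.24 ± 0.25), Col27a1 (-1.99 ± 0.18), Cthrc1, a marker of myofibroblasts (-1.36 ± 0.2), Col18a1 (-1.72 ± 0.3), Pdgfra, the receptor of platelet-derived growth factor (-1.04 ± 0.21), and Ebf2 (-1.44 ± 0.23) fell in transporter fibroblasts. Vcan and Pdgfra are also markers of oligodendrocyte precursors, and of the 3 markers of that list tested these 2 passed (66.7%). The 4 of its 5 markers outside the gate summed to 519.6, 519 and 183 CPM at 7 dpi and 84.2, 40.2 and 21.1 CPM at 21 dpi, most of it Vcan, with Olig2 at 0 in 3 of 6 libraries, and in the other fibroblasts to 716, 731 and 337 CPM and 179, 60.0 and 56.4 CPM. Their part in the result was not tested. UMIs of at least 2 of 8 proliferation genes were found in 4.25%, 10.4% and 4.55% of transporter fibroblasts at 7 dpi and in 4 of 529, 0 of 234 and 0 of 334 at 21 dpi. These are shares of nuclei with such UMIs, and they do not show that the genes were not expressed in the rest. In the fit 1 of 6 tested, Tpx2, passed (-2.58 ± 0.42).

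Solute carriers outside the rule rose in 11 of 217 (5.07%) and fell in 4 (1.84%), against 1.91% and 2.41% over all genes tested. Slc47a1 was at 3.79, 11.4 and 6.01 CPM at 7 dpi and 243, 164 and 8.45 CPM at 21 dpi (4.29 ± 0.69), and the times overlapped because Tgfbr2-cKO at 21 dpi lay below ADWA11 at 7 dpi. Slc47a1 and Pde11a together were also found in more of the other fibroblasts at 21 dpi in each condition. The shares were 5.247%, 6.18% and 3.165% at 7 dpi and 31.99%, 37.33% and 10.71% at 21 dpi. Slc16a11 was at 22.3, 49.2 and 37.6 CPM at 7 dpi and 141, 154 and 189 CPM at 21 dpi (2.14 ± 0.23), and Slc9b2, a sodium and proton exchanger, changed by 3.42 ± 0.23. Slc38a2, Slc9a2, Slc23a2, Slc16a4, Slc26a2, Slco4a1, Slc26a7 and Slc16a6 rose as well, by log2 fold changes between 1.1 (Slc23a2) and 4.41 (Slco4a1). The 4 that fell, a share below that of all genes, were Slc12a5, Slc35f4, Slc44a5 and Slc35f1. Slc12a5 is a neuronal chloride transporter, and the neuron genes Snap25, Rbfox3 and Syt1 were lower too, 3 of 4 tested, beside a summed neuron marker level of 1907 CPM in the Tgfbr2-cKO library at 7 dpi against 2.58 to 370 CPM in the other 5. Igha and Igkc, which code for antibody chains of plasma cells, rose in the fit (5.55 and 6.34), and Igkc stood at 1.69, 0.433 and 0 CPM at 7 dpi and 65.8, 67.5 and 38.4 CPM at 21 dpi in transporter fibroblasts and at nearly the same 1.84, 0.761 and 0.372 CPM at 7 dpi and 77.4, 67.9 and 36.2 CPM at 21 dpi in the other fibroblasts. The part of RNA from other cells in these values was not tested.

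**Figure D4:**
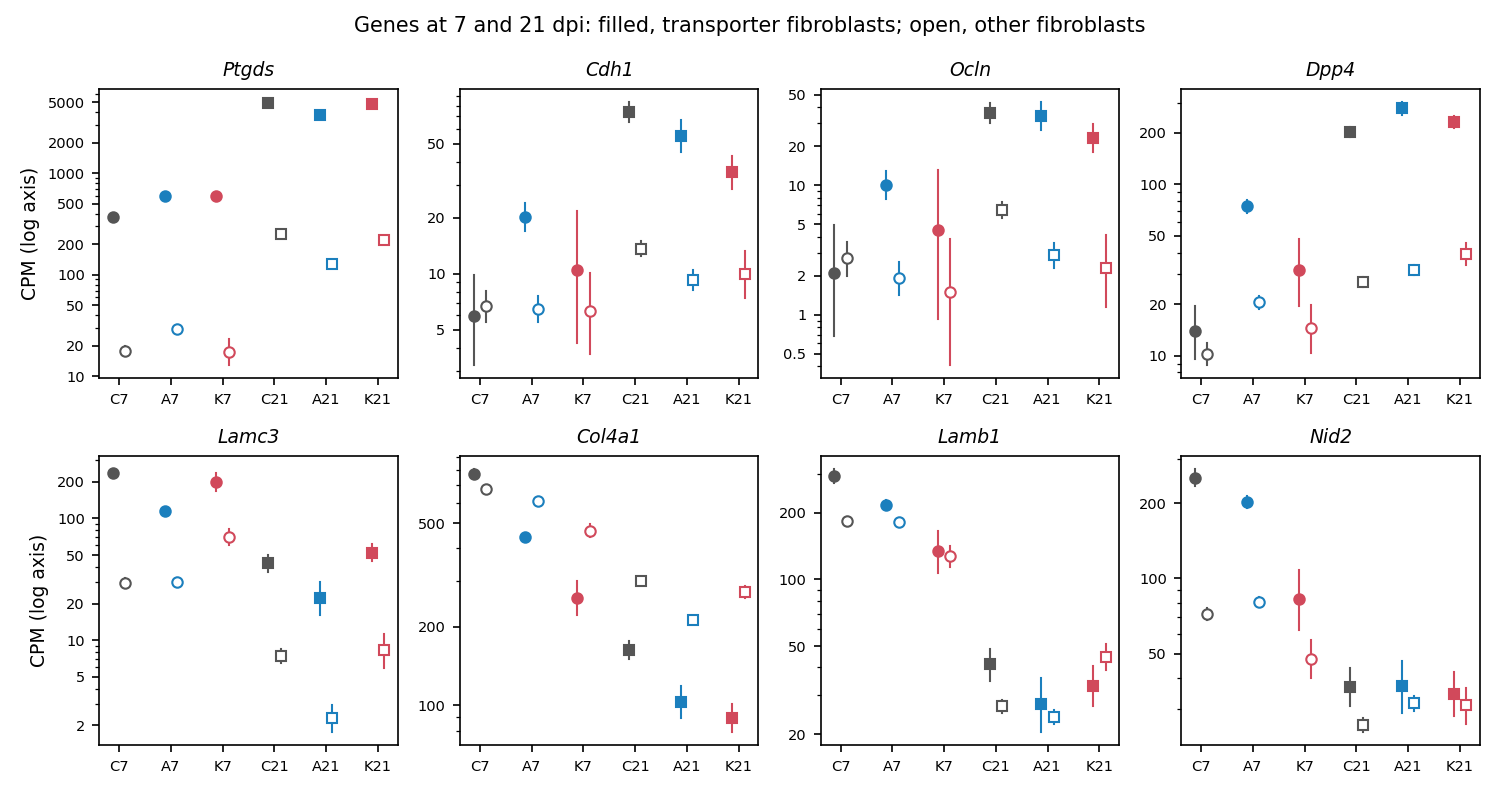
Levels of 8 genes at 7 dpi (circles) and 21 dpi (squares), in CPM on a log axis with exact Poisson 95% intervals, in transporter (filled) and other fibroblasts (open); C, A and K stand for Ctrl, ADWA11 and Tgfbr2-cKO. In transporter fibroblasts Ptgds, Cdh1, Ocln and Dpp4 were higher in all 3 libraries at 21 dpi than in any at 7 dpi, and Lamc3, Col4a1, Lamb1 and Nid2 were lower.

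Between the Ctrl libraries alone 6.76% of 7767 genes with at least 100 UMIs in the pair were at least 2 times higher at 21 dpi and 4.66% were lower by as much. In this and the following contrasts genes are ranked only where at most 20% of the UMIs of the higher library came from 1 nucleus, without Gm and Rik names. The largest ratios were those of Slc47a1 (243 against 3.79 CPM, a log2 ratio of 6.0 (95% interval 5.07 to 7.13)), Igha (log2 ratio 5.32), Igkc (5.29) and Ocln (4.11). Slc47a2 had 127 UMIs at 21 dpi and 0 at 7 dpi, a log2 ratio of 4.79 against a floor of 3 counts in the library, with a lower limit of 4.47. In the other fibroblasts of these libraries, Slc47a1 and Pde11a were found together in 31.99% at 21 dpi against 5.247% at 7 dpi. The rise of Slc47a1 was thus not limited to transporter fibroblasts by this share. St6galnac3, a sialyltransferase, was the lowest, at 63.01 against 1270 CPM, a log2 ratio of -4.33 (95% interval -4.53 to -4.14), followed by Wscd2 (-3.92), the ephrin receptor Ephb1 (-3.73), Reep1 (-3.49) and Neurl2 (-3.39). This pair shares its libraries with the fit above and with the contrasts below.

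In Tgfbr2-cKO at 21 dpi transporter fibroblasts held less fibrillar collagen RNA than in Ctrl at 21 dpi. All 7 fibrillar collagens with at least 100 UMIs in the pair were lower, 6 of them by at least 2 times, and the median log2 ratio was -1.32 against -0.06 over all 8074 genes. In that comparison 3.54% of genes were at least 2 times higher and 3.34% lower by as much. Col1a1 stood at 88.7 against 452 CPM, Col1a2 at 283 against 1130 CPM, Col3a1 at 216 against 494 CPM and Col5a2 at 230 against 525 CPM. The median was -1.40 in nuclei of the female mice, -0.95 in those of the male mice, -1.30 without members carrying neuron genes and -1.18 among those that passed the fibroblast gate, with 7 of 7 lower each time. The other fibroblasts of the same library also held less, with Col1a1 at 177 against 1257 CPM and Col1a2 at 558 against 3266 CPM.

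TGFβ target and feedback genes had a median of -0.66 in this contrast, and Nox4, an oxidase, Ltbp2, a latent TGFβ binding protein, and Tnc, tenascin C, were lower by at least 2 times of 10 with enough UMIs. Ltbp2 stood at 2.46 against 33.02 CPM, a log2 ratio of -3.74 (95% interval -5.09 to -2.66). Of 14 basement membrane genes 0 passed 2 times either way (median -0.21). Barrier genes had a median of -0.76 over 12 with enough UMIs, with Cdh1 lower by at least 2 times, at 35.2 against 74.0 CPM. Slc47a1 was among the lowest of the ranked genes, at 8.45 against 243 CPM, a log2 ratio of -4.84 (95% interval -5.49 to -4.26), together with Slc47a2 (-5.05, interval -7.35 to -3.47, from 3 against 127 UMIs), Fndc1 (-3.68) and Atp6v0a4, a proton pump subunit (-3.57). The other fibroblasts of the same libraries moved the same way for Slc47a1 with Pde11a. Both genes were found together in 10.71% of them in Tgfbr2-cKO against 31.99% in Ctrl.

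The ranked genes with the largest ratios in the Tgfbr2-cKO library at 21 dpi were Hif3a, a hypoxia-inducible factor subunit, at 139 against 3.58 CPM, a log2 ratio of 5.28 (95% interval 4.49 to 6.2), Ankfn1, at 278 against 13.5 CPM, a log2 ratio of 4.37 (95% interval 3.95 to 4.81), and Slc24a4, a sodium and calcium exchanger, at 95.4 against 9.08 CPM, a log2 ratio of 3.39 (95% interval 2.87 to 3.96). Aldh1a1, a retinaldehyde dehydrogenase, was at 724 against 109.5 CPM, a log2 ratio of 2.72 (95% interval 2.57 to 2.88), and the retinoic acid degrading enzyme Cyp26b1 at 57.7 against 10.5 CPM. Rdh10 and Stra6, which act earlier in that pathway, were lower by at least 2 times. Hif3a and Aldh1a1 were also high in the other fibroblasts of that library, at 87.2 and 879 CPM against 3.85 and 99.2 CPM in Ctrl, whereas Ankfn1 stood there at 26.6 against 7.06 CPM. Mbp, myelin basic protein, was at 62.7 against 8.805 CPM, a log2 ratio of 2.83 (95% interval 2.28 to 3.42), and all 5 oligodendrocyte markers summed to 163 against 28.1 CPM, with none at 0. Their part in the result was not tested.

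At 7 dpi the same contrast rests on 66 nuclei of Tgfbr2-cKO, and 7.8% of 5371 genes were at least 2 times higher and 7.17% lower by as much. The share of genes past 2 times was smaller without the 19 members carrying neuron genes, as given in the last section. Fibrillar collagens were lower in 7 of 7, with a median log2 ratio of -1.08 against -0.18 over all genes, and -0.57 with 6 of 7 lower when the 19 members with neuron genes were left out. Basement membrane genes were lower in 13 of 13 (median -1.2), but in 8 of 13 (median -0.62) without those members. TGFβ target and feedback genes were lower in 8 of 8 in both cases, with medians of -1.12 and -0.84, although in nuclei of the female mice 5 of 8 were lower (median -0.25). Col8a1, a network-forming collagen, was at 61.6 against 549.9 CPM, a log2 ratio of -3.16 (95% interval -3.64 to -2.71). Nrk, a kinase (-3.92), Neurl2 (-3.26), Col25a1, a transmembrane collagen (-3.07), and the amino acid transporter Slc7a7 (-2.95) were the other lowest of the ranked genes.

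Neuron genes lay above all of the ranked genes in this contrast, with log2 ratios of 4.04 for Snap25, 3.85 for Rbfox3 and 3.70 for Syt1. In all, 191 genes lay above the first of the ranked genes, Zbtb16, most of them because over 20% of their UMIs came from 1 nucleus. Zbtb16, a zinc finger transcription factor, was at 293 against 42.6 CPM, a log2 ratio of 2.78 (95% interval 2.43 to 3.15), and at a log2 ratio of 2.65 without members carrying neuron genes. It was followed among the ranked genes by Ppp1r1a (2.37), Scube1 (1.76), Fkbp5, a cochaperone induced by glucocorticoids (1.63), and Nnat (1.5). For Scube1 the direction turned in nuclei of the female mice, to -3.75. Zbtb16 and Fkbp5 were also high in Tgfbr2-cKO at 21 dpi, at 702 against 122 CPM and 1277 against 338 CPM in Ctrl, and in the other fibroblasts of that library, at 774 and 715 CPM.

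**Figure D5:**
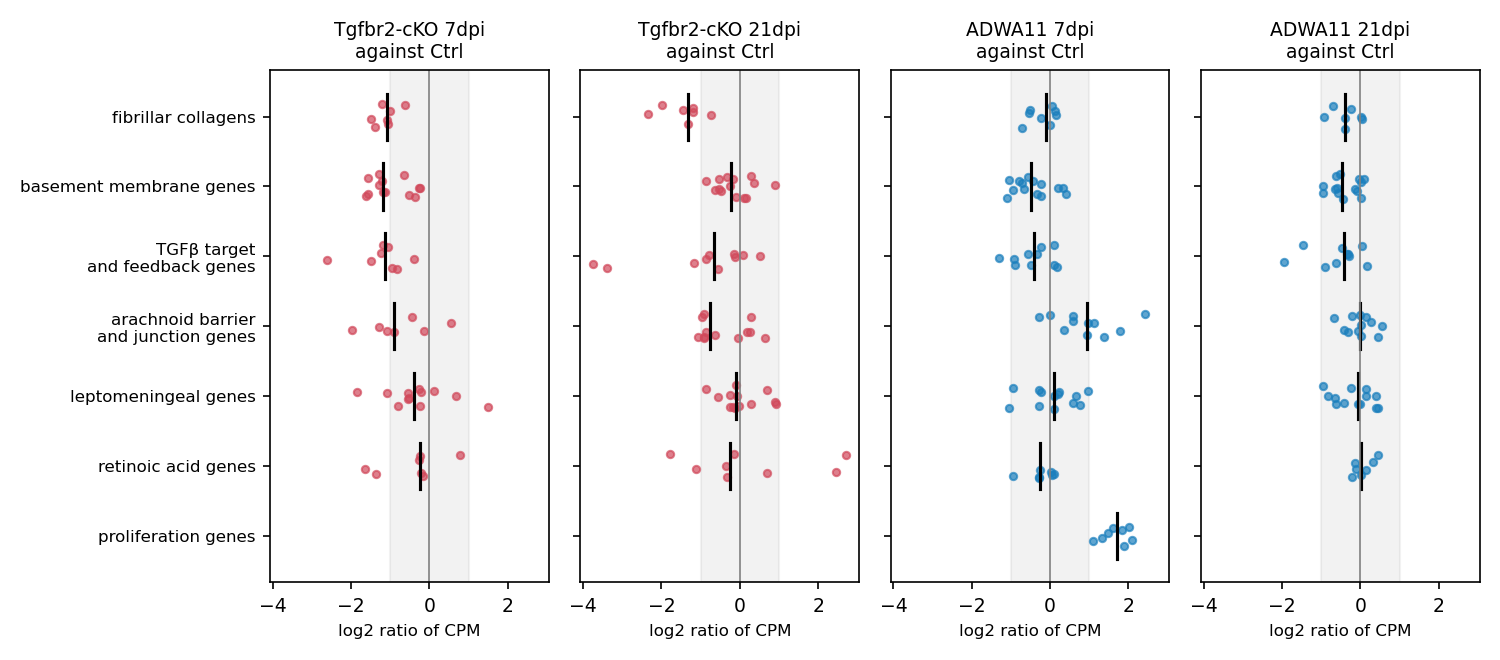
Log2 ratios of CPM in transporter fibroblasts between each treated library and the Ctrl library of the same time, for genes of 7 lists with at least 100 UMIs in the pair; each point is 1 gene, the black bar the list's median and the grey band a change of under 2 times. Fibrillar collagens in Tgfbr2-cKO at 21 dpi (median -1.32) and proliferation genes in ADWA11 at 7 dpi (median 1.72) had the lowest and the highest median of the lists shown.

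ADWA11 at 7 dpi differed from Ctrl at 7 dpi in proliferation genes. In that contrast 2.87% of 9072 genes were at least 2 times higher and 2.14% lower by as much, and the median over all genes was 0.01. All 8 proliferation genes were at least 2 times higher, with a median log2 ratio of 1.72. Mki67 stood at 44.6 against 16.0 CPM and Top2a at 71.3 against 19.4 CPM, and at least 2 of the 8 genes were found in 63 of 603 against 11 of 259 nuclei. In nuclei of the male mice 8 of 8 were higher (median 2.12) and in those of the female mice 7 of 8 (median 0.91). The other fibroblasts held Mki67 at 71.5 against 50.8 CPM and Top2a at 104 against 62.4 CPM in the same libraries.

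Barrier genes had a median of 0.96 over 11 in this contrast, and Cdh1, Dpp4, Klf5 and Gja1 were at least 2 times higher. Dpp4 was at 74.5 against 13.9 CPM and Cdh1 at 20.2 against 5.90 CPM. At least 2 of Cdh1, Ocln, Dpp4, Gjb2 and Gjb6 were found in 45.3% against 20.1% of the transporter fibroblasts. In the other fibroblasts of the same libraries the shares were 11.9% against 4.30%. The largest ratios of ranked genes belonged to Dach2, a transcription cofactor, at 16.5 against 1.26 CPM, a log2 ratio of 3.7 (95% interval 2.12 to 6.0) from 114 against 3 UMIs, Col6a5 (3.4), the calcium channel gene Ryr3 (3.09), the chromatin factor gene Hmga2 (3.09) and Cavin2 (2.79). Igf1 was lower, at 81.4 against 354 CPM, a log2 ratio of -2.12 (95% interval -2.28 to -1.97), along with Lypd6b (-2.91), the ganglioside synthase gene St8sia1 (-2.9), Nav3 (-2.25) and Fndc1 (-2.25). Fibrillar collagens had a median of -0.11, with 4 of 8 lower. In nuclei of the female mice 7 of 8 were lower (median -0.42) and in those of the male mice 4 of 8 (median -0.09). TGFβ target and feedback genes had a median of -0.40, with 7 of 10 lower. Of these 1, Pmepa1, was lower by at least 2 times, at 168 against 412 CPM.

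At 21 dpi fewer genes passed 2 times under ADWA11, 0.582% of 7564 higher and 1.73% lower, and the median over all genes was -0.01. Fibrillar collagens had a median of -0.38 with 0 of 7 past 2 times. TGFβ target and feedback genes had a median of -0.41, with 8 of 10 lower. Of these Tnc and Postn, periostin, the latter at 17.0 against 47.3 CPM, were lower by at least 2 times. Atp13a5, the gene that headed the comparison with other fibroblasts, was at 18.03 against 259.5 CPM, a log2 ratio of -3.85 (95% interval -4.38 to -3.36). Nav3 (-2.78), Clstn2 (-2.54), the adhesion molecule gene Ncam1 (-2.31) and Lypd6b (-2.07) were the next lowest of the ranked genes. The highest of them were Cd5l (2.51), a macrophage gene, and H2-Ab1 (2.23), Cd74 (2.18) and H2-Aa (1.95), which present antigen on MHC class II, with the complement gene C1s1 (1.53). Beside them the 3 myeloid markers outside the rule, none at 0, summed to 139 CPM in this library against 59.4 CPM in Ctrl, and Cd74 in the other fibroblasts was at 136 against 46.7 CPM. Their part in the result was not tested.

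Across conditions Atp13a5 was at 53.5, 23.8 and 191 CPM at 7 dpi and 259.5, 18.03 and 168 CPM at 21 dpi in transporter fibroblasts, lowest in ADWA11 at each time. Nav3 was at 478, 100.2 and 968 CPM at 7 dpi and 195, 28.3 and 269 CPM at 21 dpi and Lypd6b at 95.2, 12.7 and 66.1 CPM at 7 dpi and 36.9, 8.76 and 22.5 CPM at 21 dpi, also lowest in ADWA11 at each time. These genes were singled out after their values were seen. These 2 comparisons of ADWA11 with Ctrl come from separate libraries at the 2 times, and a difference between the times was not tested.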

How the data were processed

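Nuclei from dissected lesions were sorted with DAPI and sequenced with droplet 3′ chemistry, 1 library for each of 6 groups. The authors made UMI count matrices against mm10 with Cell Ranger, version 7.2.0 per the file headers (7.1.0 in the submitters' processing notes), and deposited these counts for 32285 features, with no normalization. Intronic reads are part of nuclear RNA, so long genes can take more UMIs. Barcodes with at least 1000 UMIs and under 5% mitochondrial UMIs were kept. The members and the gene lists were chosen with earlier results of these data known. UMIs were summed per library and class. Classes were compared with edgeR 4.0.16 in R 4.3.3 (quasi-likelihood, TMM, library as a block, Benjamini-Hochberg adjustment over all genes), tested on simulated data first; DESeq2 1.42.0 was an alternative. Conditions, with 1 library each, were compared as CPM ratios with exact intervals and no p-value, over genes with at least 100 UMIs in a pair. Floors of 3 counts and all intervals cover counting error only. Doublets were marked by nearest neighbours of simulated pairs (scikit-learn 1.9.0) and left out only in an alternative. Genes were named by rule: for the classes, the 10 largest and 10 smallest changes among called genes of at least 50 CPM in the higher class, all Slc genes called and list examples, and for each contrast 5 genes each way, with at most 20% of UMIs in 1 nucleus, without Gm or Rik names. Other alternatives were no library block, library-size scaling, no filter, nuclei thinned to 2000 UMIs, 3 or 5 genes in the rule, each sex, a pair sum of 20 UMIs and each library left out. The fit over time and the counts without nuclei carrying neuron genes were chosen after seeing the data. Some genes that the rule named or the lists counted are not reported here.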

Additional observations from a re-analysis of the deposited data

Results flagged for a closer look

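As a share of all nuclei, transporter fibroblasts differed from Ctrl in opposite directions at the 2 times. Under ADWA11 the log2 ratio to Ctrl was 0.754 at 7 dpi and -1.245 at 21 dpi, and within the fibroblast gate it was 0.8226 and -0.5837. For Tgfbr2-cKO the log2 ratio among all nuclei was -2.43 at 7 dpi and 0.2681 at 21 dpi, but the latter was -0.01041 with 3 genes in the rule, and within the gate the ratio was above 0 at both times, at 0.2684 and 1.85. What drew attention was the change of sign between the times in the same contrast among all nuclei. With 1 library a group the difference between the times was not tested. Trpm3, a gene of the rule, was detected unevenly between libraries, and its part in these ratios was not tested.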

How the results depend on the processing

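Of the recomputed values that answer a comparison 121 kept their direction and size, 57 moved and 4 reversed, counting as reversed only values whose own interval lay to one side of 0. For the share among all nuclei, the log2 ratio of Tgfbr2-cKO to Ctrl at 7 dpi was -1.384 without nuclei carrying neuron genes, and at 21 dpi it was -0.01041 (reversed) with 3 genes in the rule, 0.5538 with 5, 0.5065 without neuron-gene nuclei and 0.5231 in male nuclei. ADWA11 at 21 dpi gave -1.644 with thinned nuclei, -0.5932 in female and -1.662 in male nuclei. Ctrl at 21 against 7 dpi gave 0.7565 with 5 genes, 1.51 thinned, 0.9221 in female and -0.2455 (reversed) in male nuclei. Within the gate, Tgfbr2-cKO at 7 dpi gave 0.8349 in female and -0.3641 in male nuclei (also a change of sign, of a value whose interval spanned 0), ADWA11 at 7 dpi 1.187 thinned and 1.074 in female nuclei, Tgfbr2-cKO at 21 dpi 1.517 with 3 genes, 2.165 with 5 and 1.567 thinned, ADWA11 at 21 dpi -1.102 thinned and -0.3115 in female nuclei, and Ctrl at 21 against 7 dpi -0.05505 with 5 genes, 0.6771 thinned and 0.2483 in female nuclei (both reversed) and -1.113 in male nuclei. The cause was not tested.

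Against other fibroblasts, 450 higher and 695 lower genes became 292 and 289 without the library block and 296 and 437 thinned, and 385 to 527 and 554 to 927 when 1 library was left out. For time, 239 higher and 301 lower became 4 and 1 without the condition block, 701 and 527 without both Tgfbr2-cKO libraries, 440 higher without neuron-gene members, 437 and 516 without doublets, 137 and 156 with 5 genes in the rule, and 34 to 716 and 88 to 562 when 1 library was left out. DESeq2 gave 281 and 436. In the contrasts the share of genes past 2 times went from 15.0% to 9.72% without doublets and 7.36% without neuron-gene members for Tgfbr2-cKO at 7 dpi, from 6.89% to 3.98% in male nuclei at 21 dpi, and from 2.31% to 1.51% without doublets for ADWA11 at 21 dpi. With a pair sum of 20 UMIs it was 11.2% for ADWA11 at 7 dpi, 12.4% for Tgfbr2-cKO at 21 dpi, 7.11% for ADWA11 at 21 dpi and 18.5% for Ctrl at 21 against 7 dpi. The Tgfbr2 ratio of -1.199 at 7 dpi became -0.6932 as a mean per nucleus, -0.6966 in female nuclei and -0.8337 without neuron-gene members, and that of -0.06258 at 21 dpi became 0.1196 as a mean per nucleus. Scube1 at 7 dpi turned to -3.746 in female nuclei. The labels give no replicate numbers, and the 2 mice of a library, told apart only by sex, were compared within sex as values without a paired test.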
